A study of Danio rerio with 10 samples.

Results

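The genes described here build and run the contractile unit of zebrafish skeletal muscle: fast and slow myosins, their troponins, the actin filament, the Z-disc, the calcium store, creatine kinase and parvalbumin. They were chosen from a list of 50 zebrafish symbols, matched to the Ensembl genes of the files by symbol without regard to case, also without the letter that marks a gene copy. In this way 48 of the 50 symbols found a gene, 29 by the symbol itself, 17 without the copy letter and 2 by the current symbol MYL11 of mylpfa and mylpfb, whereas mylz3 and smyhc3 matched none. The result was 50 genes of 32520 in all. For this report 27 were assigned to fast fibres, 5 to slow fibres and 18, among them the calcium store genes, to both. Several copies carry one symbol, such as TNNI2 with 6 genes, and are told apart here only by their identifier.

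A sarcomere contracts when myosin heads of the thick filament pull on the actin of the thin filament. Calcium released from the sarcoplasmic reticulum binds troponin C, whereupon troponin and tropomyosin free the actin sites, and the calcium pump ends the contraction by refilling the store. Fast and slow fibres use different genes for myosin heavy chains, troponins and myosin-binding protein C. In zebrafish larvae most of the trunk muscle is fast muscle, covered by a superficial layer of slow fibres. Parvalbumin, a soluble calcium buffer, is abundant in fast fibres.

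RNA came from whole larvae at 120 hpf, raised without further treatment, with 50 larvae pooled per clutch and 1 library per clutch. There were 5 libraries of aldh2.1-/- larvae (KO), a single mutant line with a frame-shifting 5-nucleotide deletion made by CRISPR/Cas9 in exon 3, and 5 libraries of aldh2.1+/+ larvae (WT), both on the Tg(fli1:EGFP) background, in which vessels carry a green fluorescent protein. The clutches of both genotypes are numbered 1, 2, 3, 5 and 6, and are called KO 1 to KO 6 and WT 1 to WT 6. Aldh2.1 is a mitochondrial aldehyde dehydrogenase. The study asked which reactive carbonyl compounds it detoxifies and whether it acts on glucose metabolism and organs. Larval RNA was sequenced there to look for a mechanism of the vascular and glucose changes.

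Each library held between 19792930 and 20703518 estimated counts. CPM values (counts scaled to an equal library total) after TMM scaling were compared between genotypes by the edgeR quasi-likelihood test over 21532 genes, and p-values were adjusted over all of them. TPM values, which also allow for transcript length, were used to compare genes with each other. ALDH2 ENSDARG00000089924, taken as the targeted gene, lay between 2.75 and 7.35 CPM in KO and between 10.2 and 12.5 CPM in WT (log2 fold change -1.27, SE 0.21, edgeR adjusted p = 0.134). Mitochondrially encoded transcripts took 24.9% to 38.8% of the TPM, most in WT 3.

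All 50 genes passed the expression filter. Together they took 6.75% (KO 5) to 11.6% (KO 1) of all TPM in KO and 6.76% to 9.78% in WT, and 10 of them were among the 50 genes with the highest mean TPM. Their means over the 10 libraries spanned from 17675 TPM for actc1b, a sarcomeric actin, to 0.282 TPM for myha, a fast myosin heavy chain. A mean over 1000 TPM was reached by 15 genes, and 12 had a mean under 10 TPM. After actc1b came the essential light chain MYL1 ENSDARG00000017441 (13463 TPM), the parvalbumins pvalb1 (11857 TPM) and pvalb2 (10019 TPM), the regulatory light chain MYL11 ENSDARG00000053254 (5345 TPM), fast troponin T TNNT3 ENSDARG00000068457 (5331 TPM), fast troponin C TNNC2 (5184 TPM) and the tropomyosin tpma (4995 TPM). Of the 5 slow-fibre genes listed, the highest was the slow troponin C TNNC1 with 94.5 TPM, followed by smyhc1 (34.0 TPM), MYBPC1 (19.8 TPM), TNNT1 (5.36 TPM) and smyhc2 (3.84 TPM).

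**Figure D1:**
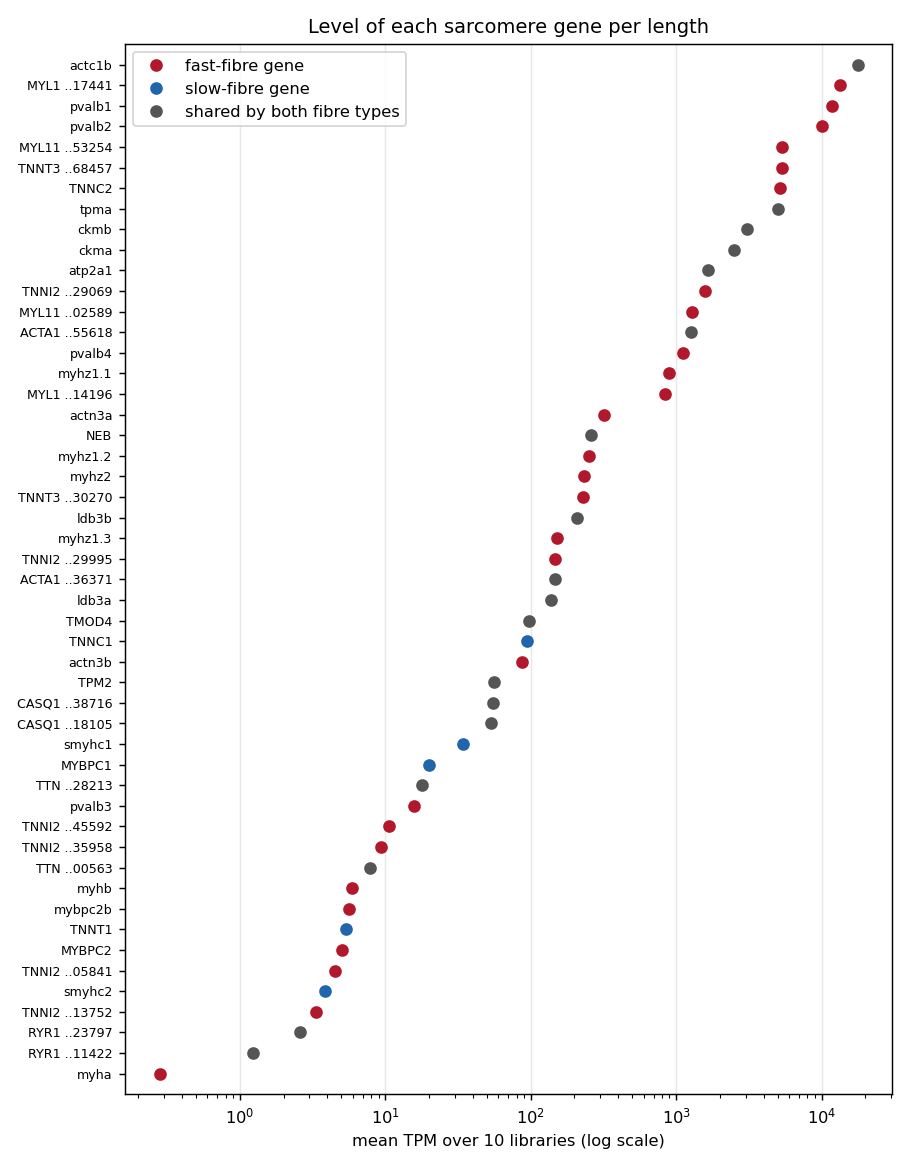
Mean TPM of each of the 50 genes over the 10 libraries on a logarithmic axis, coloured by fibre type, with the last digits of the identifier where a symbol has several copies. The 5 slow-fibre genes lie between 3.84 and 94.5 TPM, and 15 genes lie above 1000 TPM.

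In most families a single copy carried most of the transcripts. The copy actc1b held 92.5% of the summed TPM of the 3 actins, TNNT3 ENSDARG00000068457 held 95.9% of fast troponin T, TNNI2 ENSDARG00000029069 held 90.2% of fast troponin I, and smyhc1 held 89.8% of the slow myosin heavy chains. Among the 6 fast myosin heavy chains, myhz1.1 held 58.8%, myhz1.2 16.3%, myhz2 14.9% and myhz1.3 9.73%. More even were creatine kinase with 55.2% from ckmb, calsequestrin with 50.4% from CASQ1 ENSDARG00000038716, and fast myosin-binding protein C with 52.7% from mybpc2b. Only 6 of the 50 genes had whole-number counts in all 10 libraries and 27 had them in none (tolerance 1e-06), so most counts are estimates. Genes without a listed copy, such as NEB and atp2a1, were among those with none, and the source of the fractions was not tested. Where copies are near-identical, the split between them is uncertain.

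Most of the sarcomere genes lay above WT in the mean of the KO libraries, but no single gene passed the adjusted test. Their log2 fold change was positive in 47 genes and negative in 3, with a median of 0.24, whereas 52.1% of all genes tested were positive, with a median of 0.01. The adjusted edgeR threshold of 0.05 was passed by 0 of the 50 genes (background 0.00929%, 2 genes), at the smallest adjusted p of 0.583. At an unadjusted p under 0.05, 5 genes were higher in KO and 0 were lower (background 2.83% higher and 2.21% lower), which is 10% of the 50. The only gene whose KO libraries all lay above all WT libraries was a TNNT3 copy (background 0.348%). Sarcomere genes are transcribed in the same tissue and were measured in the same libraries, so they are not 50 independent observations. In whole larvae, more muscle cells and more RNA per muscle cell cannot be told apart.

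The median stayed above 0 whichever library was left out, while its size and the number of calls depended on the clutches included. Without KO 1, 40 genes were positive and 10 negative (background 51.8% positive), and the median was 0.15. Without KO 5, 49 were positive (background 51.8%), 29 had an unadjusted p under 0.05 in the upward direction (background 6.63%), and 4 passed the adjusted edgeR threshold (background 0.221%, 48 genes): mybpc2b (adjusted p = 0.0259), TNNT3 ENSDARG00000030270 (0.0328), CASQ1 ENSDARG00000038716 (0.0328) and TNNI2 ENSDARG00000029069 (0.0397). With all libraries, DESeq2 called 1 of the 50 genes, TNNT3 ENSDARG00000030270 (adjusted p = 0.0214, background 0.0826%).

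**Figure D2:**
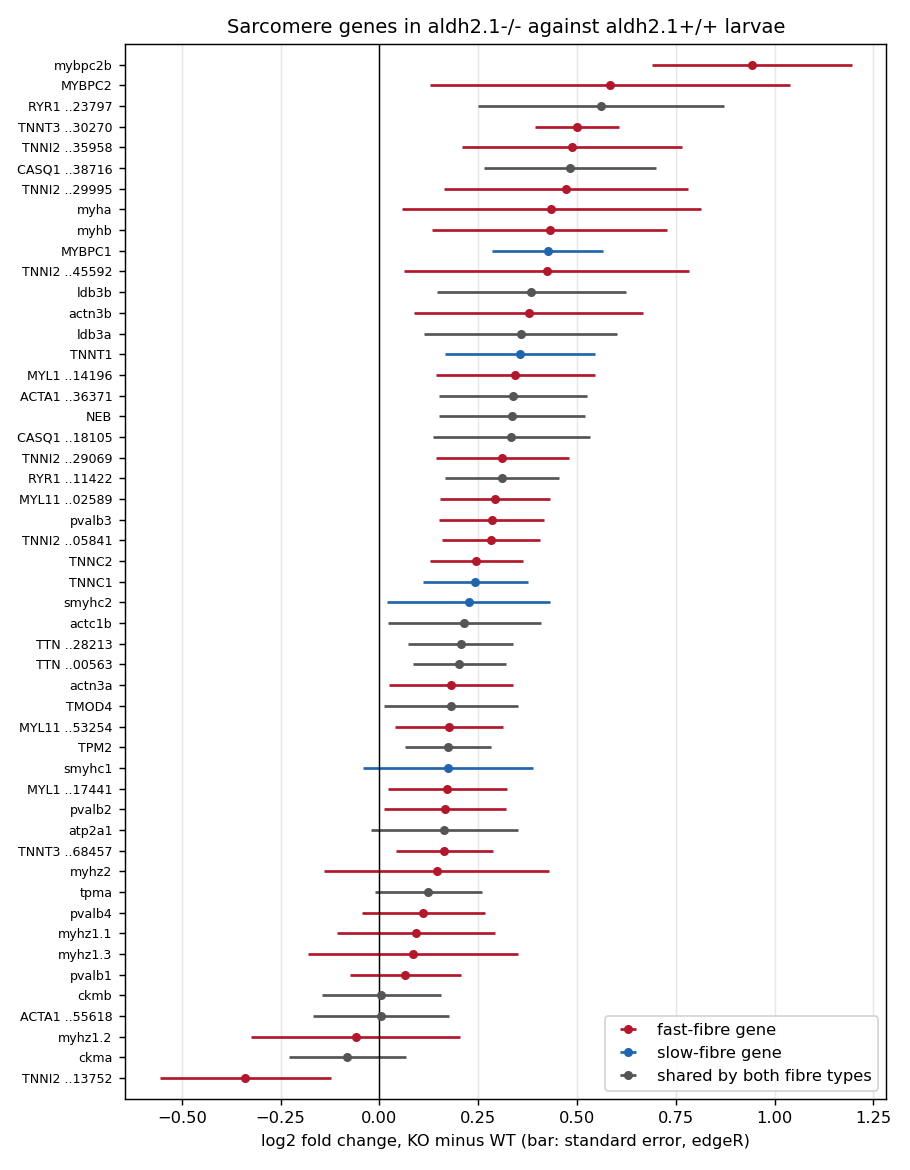
Log2 fold change of KO against WT with its standard error from edgeR for the 50 genes, sorted and coloured by fibre type. The points run from -0.34 to 0.94, 47 of them are above 0, and slow-fibre genes lie among the fast-fibre genes.

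Among the thick filament genes, most heavy chains had small mean differences and a wide spread between KO clutches. The most abundant, myhz1.1, was measured at 7251, 4186, 5557, 3228 and 4221 CPM in KO 1, 2, 3, 5 and 6 and at 5854, 4841, 3940, 3957 and 4326 CPM in WT. KO 1 was above and KO 5 below every WT library, and the log2 fold change was 0.09 (SE 0.20, edgeR adjusted p = 0.955, exact permutation p = 0.817). The spread was wider still for myhz2, with 2181.6, 1138, 1723, 743 and 665 CPM in KO against 1140, 1225, 1167, 1260 and 1040 CPM in WT. Here KO 1 and KO 3 lay above all WT libraries and KO 5 and KO 6 below all of them, so a mean difference of 0.15 (SE 0.28) stood beside a between-clutch SD of 0.74 on the log2 scale in KO and 0.11 in WT. The copy myhz1.2 was one of the 3 genes with a negative fold change (-0.06, SE 0.26, edgeR adjusted p = 0.977), and summed over the 6 fast heavy chains it was 0.08 (SE 0.22, edgeR adjusted p = 0.967). Larger fold changes came from the scarcest fast copies, myhb at 5.87 TPM (0.43, SE 0.30, edgeR adjusted p = 0.921) and myha at 0.282 TPM (0.44, SE 0.38, edgeR adjusted p = 0.923).

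The slow heavy chain smyhc1 behaved alike, with 282, 186, 211, 95.7 and 179 CPM in KO against 159, 188, 169, 181 and 147 CPM in WT. KO 1 and KO 3 were above all WT libraries and KO 5 was below them, and the log2 fold change was 0.17 (SE 0.21, edgeR adjusted p = 0.936, exact permutation p = 0.730). For smyhc2 it was 0.23 (SE 0.21, edgeR adjusted p = 0.923). The light chains, which sit on the neck of the myosin head, had 4 of 4 copies with a positive fold change and no adjusted call. MYL1 ENSDARG00000017441 was at 10934, 14377, 11235, 12870 and 16369 CPM in KO and at 14009, 12856, 9919, 10412 and 11187 CPM in WT, with overlapping ranges (0.17, SE 0.15, edgeR adjusted p = 0.923). MYL11 ENSDARG00000053254 gave 0.18 (SE 0.14, edgeR adjusted p = 0.923). The highest values of both came from KO 6, where the mean deviation of the 6 fast heavy chains was -0.54 on the log2 scale. Minor copies count as much as major ones in that mean.

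Myosin-binding protein C, which cross-links the thick filament and tunes the reach of the myosin heads, stood highest among the roles, with a median log2 fold change of 0.58 over its 3 genes. Its fast copy mybpc2b was at 38.5, 26.3, 24.1, 11.02 and 22.5 CPM in KO and 10.97, 14.1, 15.1, 12.7 and 11.04 CPM in WT. All KO libraries except KO 5 lay above all WT libraries (0.94, SE 0.25, unadjusted edgeR p = 0.00307, adjusted p = 0.921, exact permutation p = 0.0397). The other fast copy, MYBPC2, ran in another order, with 7.37, 15.2, 19.0, 27.2 and 31.8 CPM in KO and 18.0, 14.0, 2.96, 16.6 and 15.3 CPM in WT (0.58, SE 0.46, edgeR adjusted p = 0.923). It was lowest of the KO libraries in KO 1, where mybpc2b was highest.

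Summed over both copies, the fast myosin-binding protein C counts were less scattered than either copy in KO, but not than mybpc2b in WT. They came to 45.9, 41.5, 43.1, 38.2 and 54.3 CPM in KO and to 29.0, 28.0, 18.1, 29.3 and 26.3 CPM in WT, that is 44.6 ± 6.07 against 26.1 ± 4.66 CPM (SD, n = 5 clutches each). Every KO library lay above every WT library, with a log2 fold change of 0.77 (SE 0.13, unadjusted edgeR p = 5.99e-05, exact permutation p = 0.00794, the smallest that 5 against 5 libraries can give). Among all single genes tested, 0.348% were separated in this direction. Adjusted over all genes, the edgeR p was 0.157, so the sum did not pass the threshold, and the sums of the 12 other families had larger p-values. Over 19 alternative settings the log2 fold change of this sum stayed between 0.67 and 0.83, and its adjusted p was under 0.05 in 2 of them, with DESeq2 (0.000347) and with edgeR without KO 5 (0.0351). The slow form MYBPC1 was at 27.8, 21.9, 20.03, 17.7 and 21.0 CPM in KO and 16.4, 19.5, 11.9, 17.2 and 15.8 CPM in WT (0.43, SE 0.14, unadjusted edgeR p = 0.00946, adjusted p = 0.921, exact permutation p = 0.0159). Only KO 5 fell within the WT range.

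**Figure D3:**
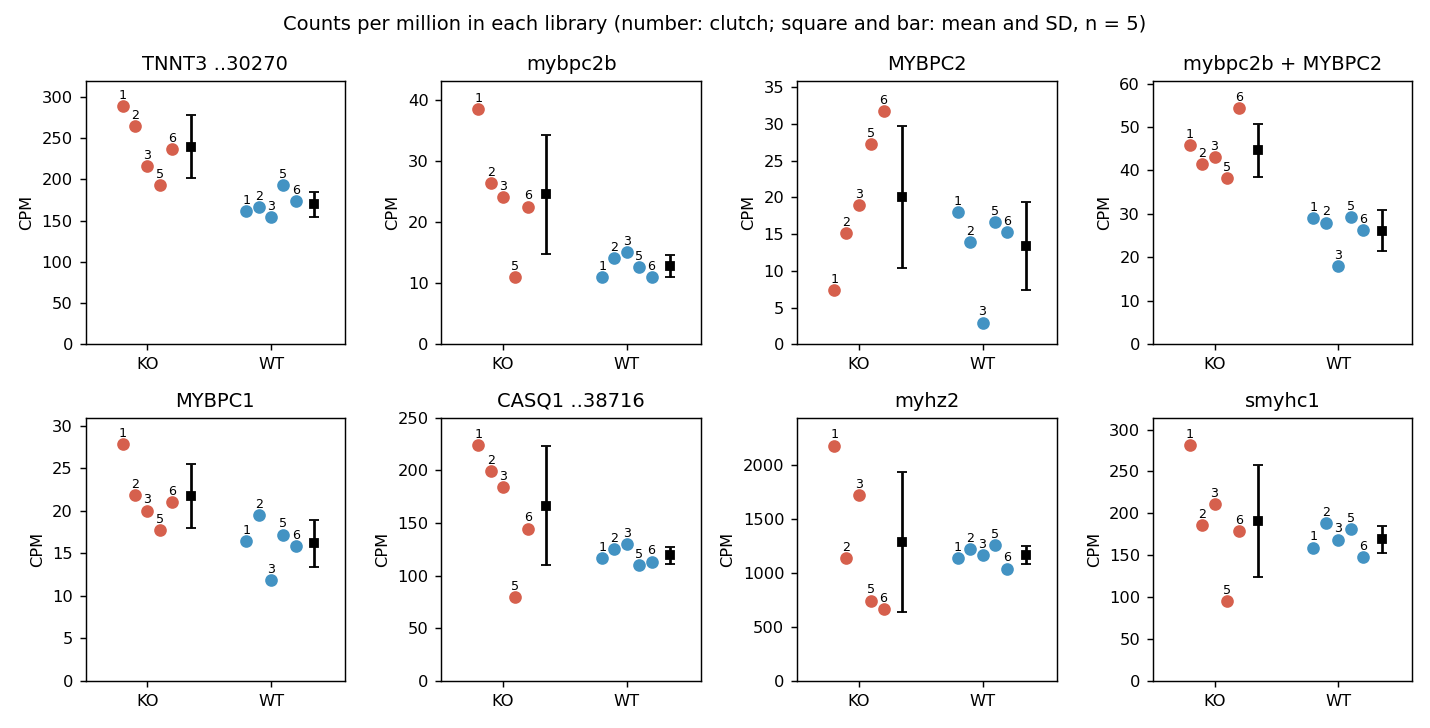
CPM of 7 genes and of the summed pair mybpc2b and MYBPC2 in each library, with the clutch number above each point and the mean and SD (n = 5) as a square with bars. The 5 KO points lie above the 5 WT points for TNNT3 ENSDARG00000030270 and for the summed pair, with KO 5 the lowest KO point in both, whereas in myhz2 and smyhc1 the KO points lie on either side of the WT points.

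On the thin filament, troponin T, which anchors troponin to tropomyosin, held the gene with the smallest p. This was TNNT3 ENSDARG00000030270, a minor copy with 4.09% of fast troponin T by TPM. It was at 289, 265, 216, 193 and 237 CPM in KO and at 161, 167, 154, 193 and 173 CPM in WT. KO 5, the lowest KO library, was at 192.8 CPM and WT 5, the highest WT library, at 192.7 CPM, so the groups were separate only by that margin. The log2 fold change was 0.50 (SE 0.11, unadjusted edgeR p = 0.000434, adjusted p = 0.583, exact permutation p = 0.00794), and over the alternative settings the adjusted p ranged from 0.0214 to 0.991. The major copy TNNT3 ENSDARG00000068457 gave 0.16 (SE 0.12, edgeR adjusted p = 0.922), and the sum of both 0.18 (SE 0.12, edgeR adjusted p = 0.921).

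Troponin I, the subunit that holds the filament off in the absence of calcium, had 5 of its 6 fast copies with a positive fold change. The major copy TNNI2 ENSDARG00000029069 was at 1082, 1154, 1001, 535 and 1073 CPM in KO and 843, 807, 755, 784 and 716 CPM in WT. The other 4 KO libraries lay above all WT libraries and KO 5 below them, which left a log2 fold change of 0.31 (SE 0.17, edgeR adjusted p = 0.921). TNNI2 ENSDARG00000005841, a copy at 4.51 TPM, had an unadjusted edgeR p of 0.0408 (0.28, SE 0.12, adjusted p = 0.921), with overlapping groups. TNNI2 ENSDARG00000013752 had the lowest fold change of the 50 genes, -0.34 (SE 0.22, edgeR adjusted p = 0.921), at 3.68 ± 1.03 CPM in KO and 4.66 ± 1.00 CPM in WT (SD, n = 5).

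Troponin C is the calcium sensor of the filament. Fast TNNC2 was at 5295, 6083, 5046, 4297 and 5818 CPM in KO and 4902, 4452, 3938, 4860 and 4230 CPM in WT (0.25, SE 0.12, edgeR adjusted p = 0.921, exact permutation p = 0.0556). Slow TNNC1 was at 77.3, 72.3, 72.4, 45.2 and 67.0 CPM in KO and 51.4, 50.5, 61.4, 66.6 and 52.9 CPM in WT (0.24, SE 0.13, edgeR adjusted p = 0.921, exact permutation p = 0.183). In both, the other 4 KO libraries lay above all WT libraries, with KO 5 within the WT range for TNNC2 and below it for TNNC1. Slow troponin T, TNNT1, gave 0.36 (SE 0.19, edgeR adjusted p = 0.921) at 4.41 ± 0.80 CPM in KO and 3.44 ± 0.80 CPM in WT (SD, n = 5).

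The most abundant gene, actc1b, was at 26299, 23007, 20694, 12435 and 15902 CPM in KO and at 20539, 17744, 15546, 14688 and 16213 CPM in WT. The first 3 KO libraries lay above all WT libraries and KO 5 below them (0.21, SE 0.19, edgeR adjusted p = 0.923). The tropomyosin tpma (0.12, SE 0.14, edgeR adjusted p = 0.936) and TMOD4, which caps the pointed end of the thin filament (0.18, SE 0.17, edgeR adjusted p = 0.925), had overlapping groups as well. So had all 7 genes of the Z-disc, the alpha-actinins and the giant proteins, whose fold changes were all positive, between 0.18 for actn3a (SE 0.16, edgeR adjusted p = 0.923) and 0.38 for ldb3b (SE 0.24, edgeR adjusted p = 0.921). The ldb3b protein helps hold the Z-disc together, and its counts were 389, 289, 304, 121 and 204 CPM in KO against 205, 196, 214, 193 and 194 CPM in WT. Its WT libraries thus lay within 193 to 214 CPM, while KO 1 to 3 were above that range and KO 5 below it. NEB, the nebulin that runs along the thin filament, gave 0.34 (SE 0.18, edgeR adjusted p = 0.921).

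The calcium store had 5 of 5 genes with a positive fold change and a median of 0.33. Calsequestrin binds calcium inside the store, and CASQ1 ENSDARG00000038716 was at 224, 199, 184, 79.4 and 145 CPM in KO and 117, 126, 130, 110 and 113 CPM in WT. All KO libraries except KO 5 lay above WT and KO 5 lay below it (0.48, SE 0.22, unadjusted edgeR p = 0.0471, adjusted p = 0.921, exact permutation p = 0.167). The pump atp2a1, the most abundant gene of the store, gave 0.16 (SE 0.19, edgeR adjusted p = 0.936). RYR1 ENSDARG00000023797, a copy of the release channel, spanned from 19.6 CPM in KO 5 to 79.0 CPM in KO 1, against 23.9 to 31.7 CPM in WT (0.56, SE 0.31, edgeR adjusted p = 0.921).

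Creatine kinase had a fold change near 0, and those of the parvalbumins were small. Creatine kinase regenerates ATP next to the myosin heads, and ckmb gave a log2 fold change of 0.01 (SE 0.15, edgeR adjusted p = 0.999) and ckma -0.08 (SE 0.15, edgeR adjusted p = 0.949). For ckma the KO libraries were at 3517, 3258, 3222, 2429 and 3426 CPM and the WT libraries at 4263, 3855, 2649, 3044 and 2959 CPM. The highest libraries of ckma and ckmb were those of WT 1, unlike for the myosins. The 4 parvalbumins lay between 0.07 and 0.28, and pvalb1 was at 5216, 5369, 4887, 5634 and 7139 CPM in KO and 6209, 6449, 4859, 4826 and 4641 CPM in WT (0.07, SE 0.14, edgeR adjusted p = 0.955). KO 5, low for most sarcomere genes, was the second highest KO library for pvalb1.

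The balance of fast and slow fibre genes overlapped between the genotypes. The median log2 fold change was 0.28 over the 27 fast genes, 0.24 over the 5 slow genes and 0.21 over the 18 shared genes. The mean log2 CPM of the fast genes minus that of the slow genes was 3.07, 3.27, 3.14, 3.26 and 3.12 in KO and 3.38, 3.08, 3.26, 3.14 and 3.17 in WT. The KO values lay within the WT range except that of KO 1, which was just below it, and the means were 3.17 ± 0.09 and 3.21 ± 0.12 (SD, n = 5). As a ratio of summed TPM, fast over slow was 375.7 ± 80.2 in KO and 386.9 ± 63.5 in WT (SD, n = 5). That ratio sets 27 genes against 5, and no light chain or parvalbumin is among the 5. It also leaves out 8 other slow-fibre genes, which summed to 224 to 497 TPM in KO and 304 to 326 TPM in WT. For the heavy chains alone the ratio was 39.6 ± 5.52 in KO and 42.4 ± 7.63 in WT, and TNNC2 over TNNC1 was 55.9 ± 6.31 and 55.4 ± 7.72 (SD, n = 5). These differences were smaller than the spread between clutches, and a score over chosen genes was given no test.

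**Figure D4:**
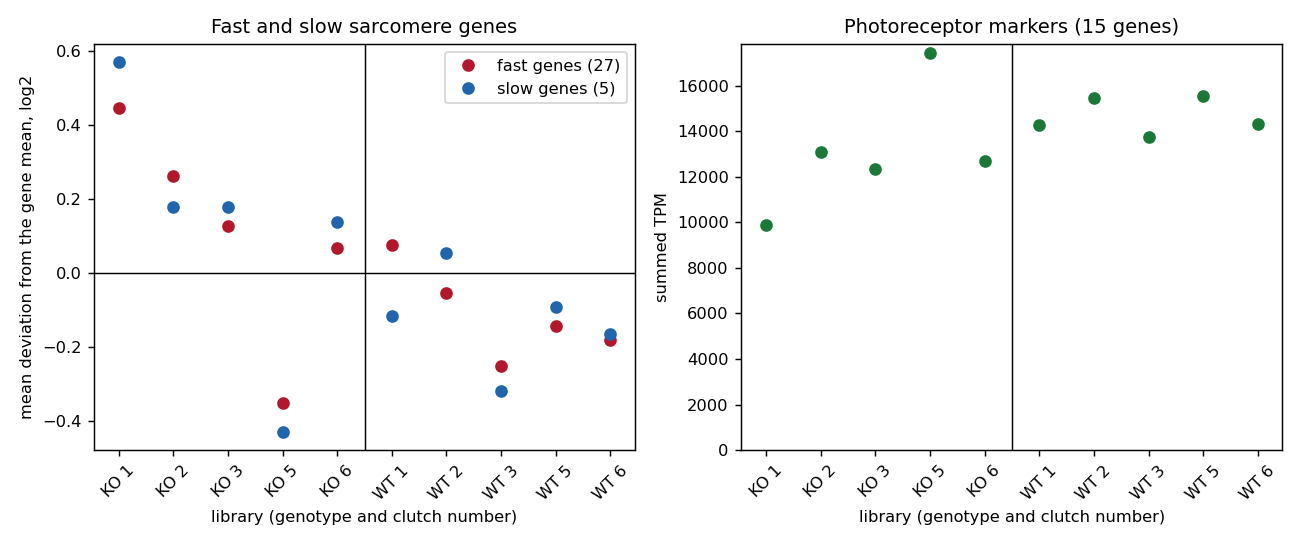
Left, mean deviation of the 27 fast and the 5 slow genes from each gene's own mean over the 10 libraries, in log2 CPM; right, summed TPM of 15 photoreceptor marker genes per library. Fast and slow genes are both highest in KO 1 and lowest in KO 5, and the photoreceptor sum is lowest in KO 1 and highest in KO 5.

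The levels of the sarcomere genes spread more widely between KO clutches than between WT clutches. Of the 50 genes, 30 had their highest value of all libraries in KO 1 and 30 had their lowest in KO 5, whereas 22.0% of all genes were highest in KO 1 and 13.9% were lowest in KO 5. Mitochondrially encoded transcripts took 9.99% of the counts in KO 1, the lowest share, 15.05% in KO 5 and 16.82% in WT 3, the highest. The 50 genes took 11.85%, 6.83% and 7.41% there. Not all libraries ran opposite: KO 2 had more of both (12.44% and 10.42%) than WT 2 (10.65% and 9.45%). The part of the mitochondrial share in the sarcomere values was not tested. The mean deviation over the 50 genes was 0.49 in KO 1, 0.26 in KO 2, 0.17 in KO 3, -0.43 in KO 5 and 0.06 in KO 6, and between -0.22 and 0.05 in WT. The between-clutch SD of log2 CPM was larger in KO than in WT for 44 of the 50 genes (88%, against 71.9% of all genes tested), with medians of 0.43 in KO and 0.17 in WT (0.24 and 0.17 over all genes).

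The roles did not spread alike. From KO 1 to KO 5, the mean deviation went from 0.85 to -0.64 for fast heavy chains, from 0.77 to -0.68 for slow heavy chains, from 0.84 to -0.83 for ldb3 and from 0.80 to -0.76 for alpha-actinin. It went from 0.10 to -0.14 for parvalbumin, from 0.19 to -0.27 for tropomyosin and from 0.13 to -0.17 for TNNC2. KO 6 split the roles: fast heavy chains were at -0.54 there, while regulatory light chains were at 0.31, fast troponin T at 0.30 and parvalbumin at 0.24. This mean counts minor copies as much as major ones. The major copy myhz1.1 was at 4221 CPM in KO 6, within the WT range of 3940 to 5854 CPM. The sum of the 6 fast heavy chains was 6508 CPM in KO 6, against 7006 to 9850 CPM in WT. Myosin-binding protein C was the only role with a positive mean deviation in all 5 KO libraries and a negative one in all 5 WT libraries, with -1.01 in WT 3, where MYBPC2 was at 2.96 CPM.

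**Figure D5:**
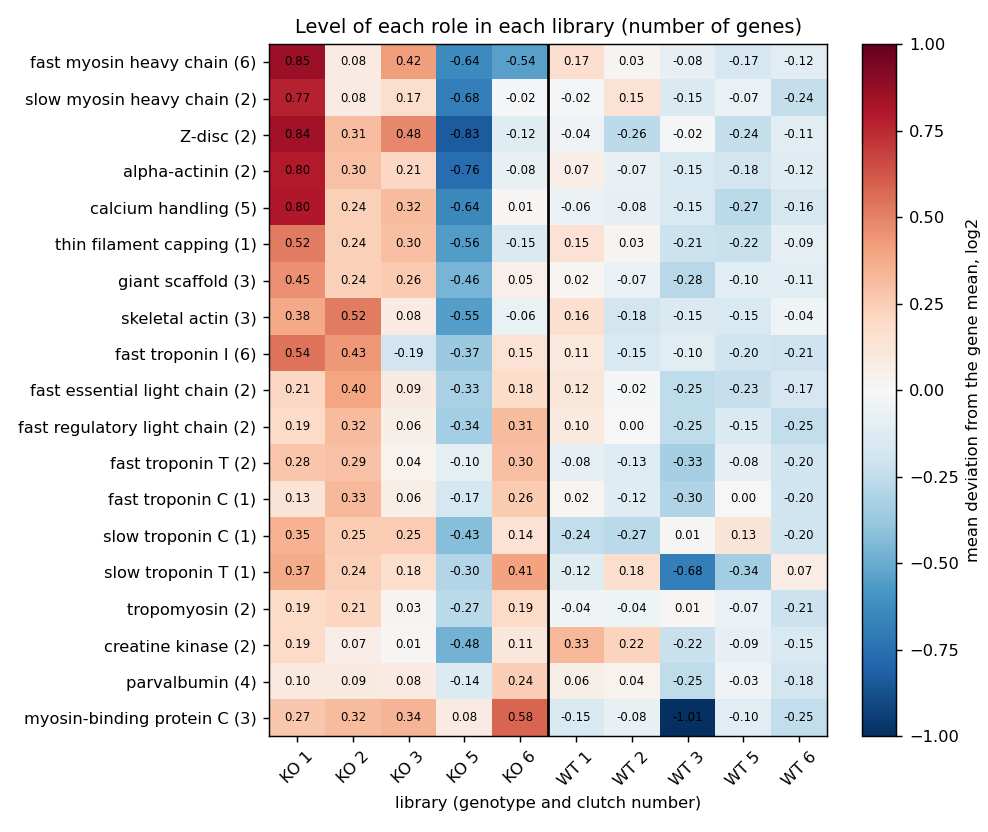
Mean deviation of each role's genes from the gene means, in log2 CPM, for each library, with the number of genes in brackets. KO 1 is above 0 and, myosin-binding protein C apart, KO 5 is below 0 in every role, and KO 6 is low for fast heavy chains (-0.54) and high for light chains and troponin T.

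Transcript length went with this split in part, as read from the ratio of counts to TPM relative to the median gene. The 30 genes highest in KO 1 had a median relative length of 1.37, but 13 of them were shorter than the median gene. The 9 with enough counts that were highest in KO 6 had one of 0.404, and 8 of them were shorter. Over 15235 genes with at least 50 counts in every library, the median deviation of the short genes, up to 0.748 of the length of the median gene, was -0.11 in KO 1, 0.05 in KO 5 and 0.04 in KO 6, and that of the long genes, from 1.36 of it, 0.01, 0.00 and -0.03. By the same bounds, the 27 short sarcomere genes had a median deviation of 0.35 in KO 1, -0.41 in KO 5 and 0.14 in KO 6. That of the 16 long ones was 0.71, -0.52 and -0.06. The part of transcript length in the differences between sarcomere genes was not tested.

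Markers of other tissues moved too. The summed TPM of 15 photoreceptor markers was lowest in KO 1 (9865 TPM) and highest in KO 5 (17448 TPM), against 13736 to 15524 TPM in WT, none of the 15 being at 0 in all libraries. Of them, 13 had a negative and 2 a positive fold change, with 1 at an unadjusted edgeR p under 0.05, PDE6C (-0.35, SE 0.16, adjusted p = 0.921), and 0 at an adjusted one. Over all genes tested, 52.1% were positive, and 2.83% were higher and 2.21% lower at an unadjusted edgeR p under 0.05. Neuronal markers spanned 1758 (KO 1) to 2062 TPM (KO 3) in KO and 1515 to 1895 TPM in WT. Heart markers spanned 180.0 (KO 5) to 277 TPM (KO 2) in KO, with 276 TPM in KO 1, and 200.2 to 226.8 TPM in WT. Cartilage markers spanned 746 (KO 6) to 1070 TPM (KO 1) in KO, with 750 TPM in KO 5, and 642 to 866 TPM in WT. The part of the cell composition of the pooled larvae in the sarcomere values was not tested.

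Other muscle genes were counted over 6 lists written for the purpose, to be read against all genes tested, of which 52.1% were positive and 2.83% higher at an unadjusted edgeR p under 0.05. Of 33 tested genes of the M-band, Z-disc and muscle cytoskeleton, 32 had a positive fold change, with a median of 0.43, and 9 were higher at an unadjusted edgeR p under 0.05. Tcap, the titin cap of the Z-disc, had the largest change of them, at 12.7 ± 6.29 CPM in KO and 3.84 ± 1.58 CPM in WT (SD, n = 5; log2 fold change 1.73, SE 0.36, edgeR adjusted p = 0.586, exact permutation p = 0.0159). It passed the adjusted threshold with DESeq2 (adjusted p = 0.000691, background 0.0826%) and with edgeR without KO 5 (0.0474, background 0.221%). Myoz3a, a calsarcin of the Z-disc, was at 23.1 ± 5.49 and 14.96 ± 3.55 CPM (0.63, SE 0.19, edgeR adjusted p = 0.921). In none of the 6 muscle lists did a gene pass the adjusted edgeR threshold with all libraries, whereas without KO 5 the named genes tcap, CHRNE (adjusted p = 0.0260) and trim63b (0.0397) did. Measured in the same libraries, the genes of these lists are not independent observations either. Summed over the 35 genes of the M-band, Z-disc and cytoskeleton list, KO 1, 2, 3, 5 and 6 were at 1600, 1179, 1275, 594 and 1016 TPM. The WT libraries were at 791 to 920 TPM, so that KO 5 lay below all of them and the other KO libraries above. These sums and those of the next list are in TPM, and with limma on log2(TPM + 1) 65% of all genes tested were positive.

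Excitation-contraction coupling links the nerve signal to calcium release, and 23 of its 24 tested genes were positive, 5 of them at an unadjusted edgeR p under 0.05. Summed over the 26 genes of this list, KO 1, 2, 3, 5 and 6 were at 606, 388, 446, 203 and 336 TPM. The WT libraries were at 267 to 328 TPM, again with KO 5 below all of them and the other KO libraries above. CHRNE, a subunit of the muscle acetylcholine receptor, was at 33.6 ± 10.3 CPM in KO and 21.9 ± 3.30 CPM in WT (SD, n = 5; 0.62, SE 0.21, edgeR adjusted p = 0.921), and CACNG1, a subunit of the voltage sensor, gave 0.34 (SE 0.11, edgeR adjusted p = 0.921). Among the 8 other slow-fibre genes, 7 were positive and 3 had an unadjusted edgeR p under 0.05, among them the heavy chain myh7ba (0.72, SE 0.20, edgeR adjusted p = 0.921) and tnni1d (0.48, SE 0.19, edgeR adjusted p = 0.921). Of 16 genes for myosin folding and protein turnover, 14 were positive, 3 higher and 1 lower at an unadjusted edgeR p under 0.05. These included trim63b, a ubiquitin ligase of muscle (0.57, SE 0.18, edgeR adjusted p = 0.921), and the small heat shock protein HSPB1 (0.43, SE 0.14, edgeR adjusted p = 0.921).

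The regulators and the fuel pathways had smaller medians than the other 4 muscle lists, against 0.01 over all genes tested. Of 23 myogenic transcription factors, 14 were positive and 9 negative, with a median of 0.08, and 2 were higher and 1 lower at an unadjusted edgeR p under 0.05. MEF2A, a factor that activates muscle genes, was among those higher (0.27, SE 0.09, edgeR adjusted p = 0.921). Of 22 genes of muscle glycolysis and the energy buffer, 17 were positive, with a median of 0.09 and 2 at an unadjusted edgeR p under 0.05. LDHA, which turns pyruvate into lactate, had the smallest p of the 22 and was at 320.8 ± 28.1 CPM in KO and 254.6 ± 16.2 CPM in WT (SD, n = 5). Every KO library was above every WT library (background 0.348%; 0.33, SE 0.08, edgeR adjusted p = 0.780, exact permutation p = 0.00794). With DESeq2 it passed the adjusted threshold (adjusted p = 0.0367, background 0.0826%). The glycogen phosphorylase kinase subunit phka1a gave 0.26 (SE 0.10, edgeR adjusted p = 0.921).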

How the data were processed

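Whole-larva RNA had been sequenced by BGI on a BGISEQ-500. The authors deposited, per clutch, estimated counts, that is reads assigned to each gene and not normalized. They also deposited TPM values, which are divided by transcript length and brought to an equal sum. The submitters' processing notes list Trim Galore 0.6.4, kallisto (given as 0.4.6) and the build GRCz11; a reference of that build was not used here, so no coordinates or sequences are given. Symbols were known for 29201 of 32520 genes. Where the listed copies matched by their own symbols, the genes ACTC1 and PVALB without a copy letter were left out.

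Counts were rounded and fitted with edgeR 4.0.16 (R 4.3.3): TMM factors (0.948 to 1.08), filterByExpr, robust quasi-likelihood test, no block, Benjamini-Hochberg adjustment over 21532 genes with a threshold of 0.05. The standard error is the log2 fold change divided by the square root of F. Log2 CPM used a prior count of 2. Exact permutation tests were two-sided over the 252 splits of 5 against 5 libraries. For summed families, the copies' counts were replaced by their sum. Relative length was the count divided by the TPM, over the same ratio of the median gene of the library. A mean deviation is a gene's log2 CPM minus its mean over the 10 libraries, averaged over genes.

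Averaged over genes, libraries of a genotype differed by at least 7.46 in chi-square per degree of freedom. Clutch spread thus exceeded counting error over genes as a whole, whereas genes with few counts were not examined apart. Whether clutches came from separate parents is not given in the sources used here. The p-values therefore weigh the difference between genotypes against the spread between these clutches only. The edgeR fit used 1 spread per gene for both genotypes, and the permutation test treats their libraries as exchangeable. For the 50 genes, however, the median SD of log2 CPM was 0.43 in KO and 0.17 in WT. What this unequal spread does to the p-values was not tested. Named were the most abundant gene of each role, every slow gene and up to 2 genes per other list. Also named were up to 5 genes with the smallest p in each direction, of which 3 were negative. Values of some other sarcomere genes are given as well. The alternatives were library size alone, TMM without the muscle genes, DESeq2 1.42.0, 2 other filters, limma 3.58.1 with a pseudocount of 1 or 0.1 on the log2 scale of TPM, the clutch number as a block, leaving out each library, exact symbols only, other fast lists, and limma-voom, which was added after the data were seen. The genes and lists were chosen with earlier results of these data known, so their counts are descriptions. The fits were also run on simulated counts with changes of 1 log2 unit or more and 1 spread per gene for both genotypes. All 50 genes changed by less, so the simulation does not measure how well such changes are called. Python 3.11.15, pandas 2.3.3, numpy 2.4.6 and matplotlib 3.10.9 were used for tables and plots.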

Additional observations from a re-analysis of the deposited data

Results flagged for a closer look

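A single library lay far from the other 4 of its genotype in 4 of 116 groups of 5 libraries examined for the named genes and levels, and chance alone gives about 1 in 20. In KO 5, TNNI2 ENSDARG00000029069 was lowest at 535 CPM, ckma was lowest at 2429 CPM and myh7ba was lowest at 2.99 CPM. In WT 3, tcap was highest at 6.58 CPM.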

How the results depend on the processing

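The upward median of the sarcomere genes kept its sign in every setting tried, while the counts of calls moved with the method and with single clutches. At an unadjusted p under 0.05, the number of sarcomere genes higher in KO was 5 in the reported edgeR fit (2.83% of all genes), 8 with library size alone (3.30%), 8 with DESeq2 (2.44%), 3 with limma on log2(TPM + 1) (2.81%), 3 on log2(TPM + 0.1) (2.80%) and 2 of the 30 genes matched by exact symbols only (2.83%). Over all genes, 24 passed the adjusted threshold with DESeq2 and 4 without an expression filter, against 2. With DESeq2, 1 sarcomere gene and 1 summed family were called. Leaving out each library in turn, 2 to 48 genes, 0 to 4 sarcomere genes and 0 to 2 summed families were called. In these fits, 3 to 29 sarcomere genes were higher and 0 lower at an unadjusted p under 0.05. The share of all genes higher at that p ran from 1.83% without KO 1 to 6.63% without KO 5. The largest counts were those without KO replicate 5, and the families called there were mybpc2 and casq1. The median log2 fold change ran from 0.15 to 0.34 for all 50 genes, 0.18 to 0.32 for the fast and 0.19 to 0.36 for the slow genes, and the fast minus slow difference from -0.06 to 0.01. Among 1007 refits of 53 named genes, 978 kept direction and call, 10 gained the call and 19 changed sign with no call on either side. The cause was not tested.

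The sign changes were as follows. The log2 fold change of ckmb was -0.0076 with the replicate block and -0.011 with limma-voom. With limma on log2(TPM + 1) and on log2(TPM + 0.1), that of sypa was 0.069 in both and that of the creatine kinase sum 0.010 in both, and the latter was 0.000538 with library size alone. Without 1 library each, ckmb ran from -0.058 to 0.12, ckma ran from -0.15 to 0.019, myhz1.1 ran from -0.093 to 0.21, myhz1.2 ran from -0.30 to 0.093, smyhc1 ran from -0.0101 to 0.34, smyhc2 ran from -0.017 to 0.35, pvalb1 ran from -0.034 to 0.14, the fast heavy chain sum from -0.14 to 0.21, the slow heavy chain sum from -0.011 to 0.34 and the creatine kinase sum from -0.0896 to 0.065.

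With the clutch number as a block, 1 gene passed the adjusted threshold and 43 sarcomere genes were positive and 7 negative (background 50.6% positive). Libraries with the same number did not deviate together (correlations -0.13 to 0.11 over 5 pairs), and 3 of 10 libraries correlated best with the library of their own number, so the numbers were not taken as pairs. Genes at a few CPM, such as the minor TNNI2 copies, rest on few reads per library.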

Other observations

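Outside skeletal muscle, the heart and smooth muscle markers, not all of them contractile genes, had no common direction. Of 14 tested heart markers, 6 had a positive and 8 a negative fold change and 0 an unadjusted edgeR p under 0.05 (adjusted 0). Among all genes tested, 52.1% were positive, and 2.83% were higher and 2.21% lower at an unadjusted edgeR p under 0.05. MYBPC3, the cardiac myosin-binding protein C, was at 110.6 ± 17.9 CPM in KO and 95.3 ± 9.50 CPM in WT (SD, n = 5; log2 fold change 0.22, SE 0.11, edgeR adjusted p = 0.921), and the heavy chain MYH6 gave 0.27 (SE 0.16, edgeR adjusted p = 0.921). Of 9 smooth muscle markers, 6 were positive, with the kinase MYLK at 0.61 (SE 0.24, edgeR adjusted p = 0.921) and smtnb at -0.22 (SE 0.09, edgeR adjusted p = 0.921).

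Gut markers lay mostly lower in KO, with a median log2 fold change of -0.38, again without an adjusted call. The liver markers had a median of -0.02, against 0.01 over all genes tested, and no adjusted call either. The counts of this paragraph are to be read against all genes tested, of which 52.1% were positive. Of 13 intestinal markers 11 were negative, among them apoa4b.2 with 33.8 ± 4.75 CPM in KO and 69.9 ± 40.2 CPM in WT (SD, n = 5; -1.05, SE 0.33, edgeR adjusted p = 0.921) and FABP6 (-0.81, SE 0.32, edgeR adjusted p = 0.921). Of 11 liver markers 8 were negative, with fabp10a at -0.50 (SE 0.18, edgeR adjusted p = 0.921) and apoa2 at -0.25 (SE 0.16, edgeR adjusted p = 0.921). Here the spread was wider in WT: the intestinal sum ran from 409 to 1778 TPM in WT and from 497 to 798 TPM in KO. Of 10 cartilage markers 9 were positive, with col9a1b at 0.29 (SE 0.09, edgeR adjusted p = 0.921) and COL11A2 at 0.20 (SE 0.15, edgeR adjusted p = 0.921). Of 10 neuronal markers 6 were positive, with syn1 at 0.12 (SE 0.08, edgeR adjusted p = 0.921) and sypa at -0.11 (SE 0.09, edgeR adjusted p = 0.923), and the cone gene ARR3 was at -0.33 (SE 0.15, edgeR adjusted p = 0.921).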
